A study of Mus musculus with 2 samples.

Results

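The 10 genes tied to cyclic AMP (cAMP) signalling described here were measured by RNA-seq of mouse fibro-adipogenic progenitors (FAPs). They were picked by name for their known roles, with earlier results of these data known, and all 10 were among the 44291 genes measured. Of these, 5 were targets of the transcription factor CREB (Nr4a1, Nr4a2, Nr4a3, Crem and Sik1) and 5 were phosphodiesterases (Pde4b, Pde4d, Pde3b, Pde7b and Pde1a). FAPs are mesenchymal cells of skeletal muscle that can become adipocytes. Wild-type primary FAPs were given platelet-rich plasma (PRP) or vehicle, and each group was sequenced as 1 library. Both groups were in adipogenic induction medium based on DMEM, which carried IBMX at 0.5 mM, dexamethasone at 0.25 µM and insulin at 10 µg/ml beside 20% FBS. The labels call the treatment PRP, while the study's text describes exosomes taken from the PRP of young human donors. The libraries are named PRP and control here as labelled. Per the study's methods young C57BL/6 mice were bought for its animal experiments, and the part on FAP isolation gives no strain or age. The number of animals behind a library and the hours in the medium were not given in the sources used here.

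In the cAMP pathway, receptors coupled to the G protein Gs switch on adenylyl cyclases, and the cAMP they make frees the catalytic subunits of protein kinase A (PKA) from its regulatory subunits. PKA phosphorylates CREB, which binds cAMP response elements in promoters and, with the CRTC and CBP/p300 coactivators, switches on a rapid set of genes. Phosphodiesterases break cAMP and cGMP down. IBMX blocks most phosphodiesterases and is a standard part of adipogenic cocktails, while the PDE8 and PDE9 enzymes are largely resistant to it. Since IBMX was in both groups, the comparison was between PRP and vehicle on top of IBMX, and no library without IBMX was analysed here.

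The promoters of the 3 NR4A genes are shown because they carry the letters that CREB binds. The search was for TGACG, the core of the cAMP response element, on either strand (CGTCA when on the reverse strand), in the 250 bases before each start site in RefSeq promoters of GRCm38. The full palindrome TGACGTCA holds the core on both strands and was counted as 2 cores. Cores are in capitals. The stretches lie at chr15:101266596-101266845 on the plus strand for Nr4a1, chr2:57124004-57124253 on the minus strand for Nr4a2 and chr4:48045055-48045152 on the plus strand for Nr4a3, each written 5′ to 3′.
Nr4a1: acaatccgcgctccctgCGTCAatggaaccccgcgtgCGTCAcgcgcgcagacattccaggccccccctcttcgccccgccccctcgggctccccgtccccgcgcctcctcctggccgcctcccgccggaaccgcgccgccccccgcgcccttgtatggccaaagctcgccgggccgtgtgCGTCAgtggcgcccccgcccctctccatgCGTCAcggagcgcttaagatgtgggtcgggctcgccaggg
Nr4a2: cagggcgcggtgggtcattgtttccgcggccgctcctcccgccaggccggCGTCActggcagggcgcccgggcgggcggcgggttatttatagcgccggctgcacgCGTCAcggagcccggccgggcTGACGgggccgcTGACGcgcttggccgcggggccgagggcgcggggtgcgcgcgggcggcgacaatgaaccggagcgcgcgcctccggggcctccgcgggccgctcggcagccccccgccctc
Nr4a3: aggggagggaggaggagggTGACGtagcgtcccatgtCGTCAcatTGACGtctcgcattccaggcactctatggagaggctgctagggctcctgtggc
Each of the 3 promoters held 4 cores and none held the palindrome. In Nr4a1 the cores began at -233, -213, -69 and -40 from the start site, in Nr4a2 at -200, -144, -123 and -111, and in Nr4a3 at -231, -213, -205 and -147. The last core of Nr4a3 lies outside the 98 bases shown, because the rest of its window overlaps annotated exons. M21 begins Nr4a3 at 48045153, upstream of the RefSeq start at 48045305. That core therefore lies inside the gene as M21 draws it, and 3 cores lie before the M21 start. The Nr4a1 start site used by RefSeq lies inside the gene as GENCODE M21 draws it, since M21 begins the gene further upstream.

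Among 32851 RefSeq promoters, 17.8% held at least 1 core, 3.90% at least 2 and 0.137% (45 promoters) at least 4, whereas 1.55% held the palindrome. Promoters on chromosome 18, where Crem lies, were not counted. Of the 5 phosphodiesterases, 4 had entries, with 10 promoters in all. Cores stood before 2 of these genes, once in 1 start of Pde4b at -34 and once in 1 start of Pde1a at -166, and no phosphodiesterase promoter held the palindrome. A match of letters is a description and not a binding site. No promoter is shown for Crem, Sik1 and Pde3b.

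The 10 genes were all expressed at low levels. FPKM, reads scaled to exon length and to the total of assigned reads, ran from 0.152 for Pde7b to 2.52 for Nr4a2, both in the PRP library. For all 10 the FPKM corresponded to whole reads, between 166 and 592 over both libraries. The intervals given with levels are 95% Poisson intervals and those given with ratios are exact Clopper-Pearson 95% intervals of the PRP share of fragments, turned into a ratio. Both cover counting error alone and compare 2 libraries, not 2 treatments. With 1 library per group no difference has a replicate check and no p-value is given. In bulk RNA, fewer cells of a type and less RNA per cell cannot be told apart.

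**Figure D1:**
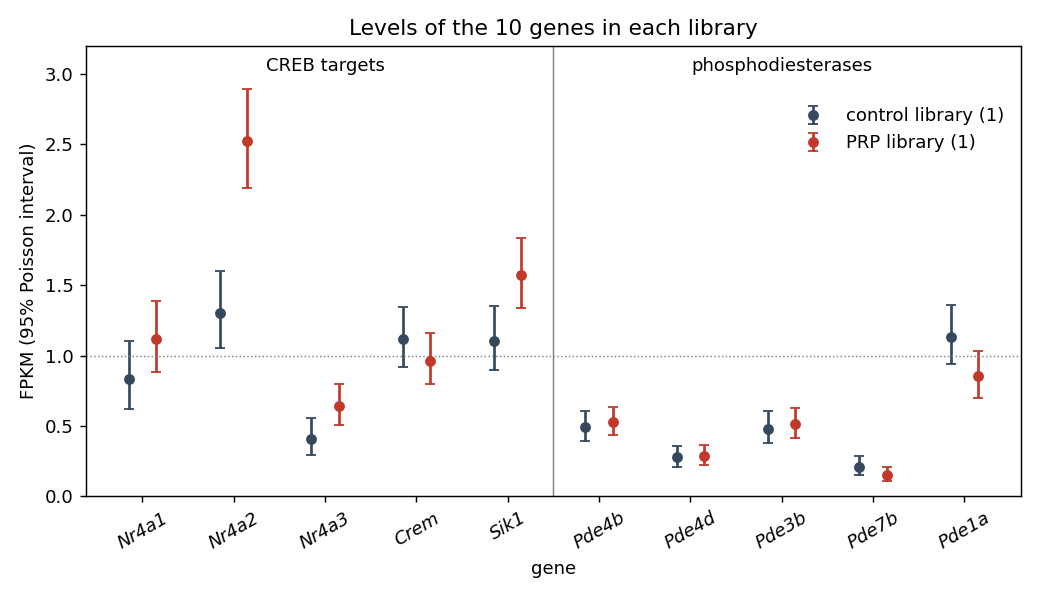
FPKM of the 10 genes (y axis) in the control and the PRP library, with 95% Poisson intervals as bars and a dotted line at 1 FPKM. Nr4a2 stands highest in both libraries, at 2.52 in PRP and 1.31 in control, and Pde7b lowest, at 0.152 and 0.212.

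The NR4A genes encode orphan nuclear receptors that are switched on within a short time by cAMP, growth factors and stress. All 3 had higher levels in the PRP library, and for 2 of them, Nr4a2 and Nr4a3, the interval of the ratio lay above 1. Their summed level was 4.28 FPKM in PRP and 2.55 FPKM in control, a ratio of 1.68. Nr4a2 made up most of this sum, with 59.0% in PRP and 51.2% in control, while Nr4a1 made up 26.1% and 32.7% and Nr4a3 15.0% and 16.1%.

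Nr4a2 (ENSMUSG00000026826, chr2:57106830-57124003, minus strand), known also for its part in dopamine neurons, was at 2.52 FPKM (interval 2.19 to 2.89) in PRP and 1.31 FPKM (1.05 to 1.60) in control, from 411 and 181 reads. The intervals of the levels did not overlap. The ratio was 1.93 (1.502 to 2.503), the highest of the 10 genes, and the log2 fold change on the log2(FPKM + 1) scale was 0.61. A set of 3112 genes had summed reads in the range of the 10 genes, and 160 of them had a higher ratio than Nr4a2.

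Nr4a3 (ENSMUSG00000028341, chr4:48045153-48086447, plus strand) was the lowest of the family, at 0.641 FPKM (0.506 to 0.801) in PRP and 0.411 FPKM (0.296 to 0.556) in control. The intervals of these levels overlapped, while the interval of the ratio of 1.56 (1.06 to 2.33) stood above 1, close to its edge. It rested on 154 and 84 reads, and 360 of the 3112 genes had a higher ratio.

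Nr4a1 (ENSMUSG00000023034, chr15:101254269-101274795, plus strand), also called Nur77, was at 1.12 FPKM (0.882 to 1.39) in PRP and 0.835 FPKM (0.620 to 1.10) in control. Its ratio of 1.34 (0.925 to 1.94), from 157 and 100 reads, had an interval that included 1. When reads instead of fragments were taken as independent counts the interval became 1.03 to 1.73. Whether the interval left out 1 thus turned on how mates are counted, which by construction leaves the ratio itself unchanged.

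Sik1, a salt-inducible kinase that is made in response to cAMP and holds the CRTC coactivators out of the nucleus, was higher in the PRP library. It lies at chr17:31844250-31855804 on the minus strand (ENSMUSG00000024042). Its level was 1.57 FPKM (1.34 to 1.84) in PRP and 1.11 FPKM (0.898 to 1.35) in control, from 324 and 194 reads. The ratio was 1.42 (1.10 to 1.85), with a log2 fold change of 0.29 on the log2(FPKM + 1) scale.

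Crem did not follow the other 4 CREB targets in direction. It encodes activators and, from an internal promoter, the short repressor ICER, which cAMP induces and which shuts cAMP-driven transcription down again. Crem (ENSMUSG00000063889, chr18:3266048-3337748, minus strand) was at 0.964 FPKM (0.795 to 1.16) in PRP and 1.12 FPKM (0.921 to 1.34) in control. The ratio was 0.862 with an interval of 0.659 to 1.13 that included 1, from 228 and 225 reads. M21 lists 39 transcripts for Crem and the deposited values are per gene, so ICER could not be separated from the activator forms. Of its exon bases 8.01% overlap Gm6225 on the opposite strand, and whether reads were counted by strand was not given in the sources used here.

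Together the 5 CREB targets summed to 6.82 FPKM in PRP and 4.78 FPKM in control, a ratio of 1.43, with 4 ratios above 1 and a median ratio of 1.42. Intervals stood above 1 for 3 of the 5 and below 1 for none.

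The 5 phosphodiesterases were nearly level between the libraries as a group, at a summed 2.34 FPKM in PRP and 2.60 FPKM in control, a ratio of 0.899. Of the ratios 3 were above 1 and 2 below, the median was 1.04, and only Pde1a had an interval that left out 1. That interval lay below 1, as for 15.5% of the genes in the same range of reads. None had a mean FPKM of 1 or more.

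Pde4b and Pde4d encode cAMP-specific enzymes of the rolipram-sensitive PDE4 family, and short forms of both are themselves induced by cAMP. Pde4b (ENSMUSG00000028525, chr4:102087543-102607259, plus strand) was at 0.529 FPKM (0.435 to 0.636) in PRP and 0.494 FPKM (0.397 to 0.608) in control, a ratio of 1.07 (0.803 to 1.43). Pde4d (ENSMUSG00000021699, chr13:108449948-109953461, plus strand) was at 0.289 FPKM (0.225 to 0.365) and 0.278 FPKM (0.211 to 0.360), a ratio of 1.04 (0.720 to 1.4995). Neither was distinguishable between the libraries at this depth, where Pde4b had 224 and 178 reads and Pde4d 139 and 114. M21 lists 13 transcripts for Pde4b and 20 for Pde4d, and a shift between long and short forms would not show in a value per gene.

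Pde3b is the phosphodiesterase through which insulin lowers cAMP and restrains lipolysis in adipocytes. It lies at chr7:114415281-114539251 on the plus strand (ENSMUSG00000030671) and was at 0.514 FPKM (0.415 to 0.629) in PRP and 0.482 FPKM (0.379 to 0.604) in control. Its ratio of 1.07 (0.779 to 1.46) rested on 188 and 150 reads and did not part from 1.

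Pde1a and Pde7b were the lower ones in the PRP library. Pde1a, of the PDE1 enzymes that calcium and calmodulin activate, was at 0.854 FPKM (0.697 to 1.04) in PRP and 1.14 FPKM (0.938 to 1.36) in control, from 206 and 233 reads. It lies at chr2:79834453-80129458 on the minus strand (ENSMUSG00000059173). The levels overlapped in their intervals, and the ratio of 0.752 (0.571 to 0.989) stood just below 1. Pde7b, a cAMP-specific and rolipram-insensitive enzyme (ENSMUSG00000019990, chr10:20398004-20725078, minus strand), was at 0.152 FPKM (0.108 to 0.209) in PRP and 0.212 FPKM (0.155 to 0.283) in control. Its ratio of 0.719 (0.454 to 1.13), from 76 and 90 reads, was lower than that of Pde1a but less precise.

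**Figure D2:**
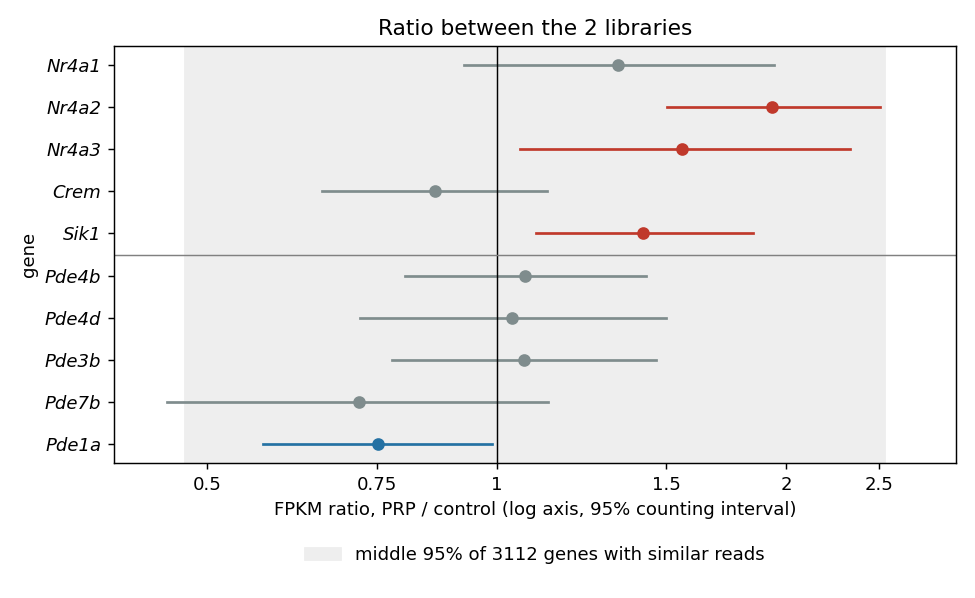
Ratio of FPKM, PRP over control, on a log axis, with exact 95% counting intervals as lines. Red marks intervals above 1 (Nr4a2, Nr4a3, Sik1), blue an interval below 1 (Pde1a), grey intervals that include 1, and the shaded band the middle 95% of the ratios of 3112 genes with similar reads (0.474 to 2.54), within which all 10 ratios lie.

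Read against the other genes, these counts were modest. Intervals above 1 were found for 3 of the 10 genes, and for 18.5% of the 3112 genes in the same range of reads. Intervals below 1 were found for 1 of the 10, and for 15.5% of those genes. Their ratios had a median of 1.02, with 52.5% above 1. Only Nr4a2, Sik1 and Crem reached the minimum level set for the log2 fold change, a mean of 1 FPKM over both libraries, with Crem at 1.04 just inside and Pde1a at 0.995 and Nr4a1 at 0.975 just outside. None of these 3, and with no minimum none of the 10, was 2-fold changed on the log2(FPKM + 1) scale. Over 13401 genes past that minimum, 2.00% were at least 2-fold higher in PRP and 0.828% at least 2-fold lower.

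The order of levels was led by Nr4a2 in both libraries and closed by Pde4d and Pde7b. FPKM divides by the length of all annotated exons of a gene merged, from 3509 bases for Nr4a1 to 12444 for Pde7b. The order between genes therefore depends on that length as well as on reads, and the intervals do not cover this. In PRP it ran Nr4a2, Sik1, Nr4a1, Crem, Pde1a, Nr4a3, Pde4b, Pde3b, Pde4d and Pde7b. The neighbours whose intervals did not overlap were Nr4a2 with Sik1, Pde3b with Pde4d, and Pde4d with Pde7b. In control it ran Nr4a2, Pde1a, Crem, Sik1, Nr4a1, Pde4b, Pde3b, Nr4a3, Pde4d and Pde7b, and among neighbours only Nr4a1 and Pde4b did not overlap. Pde1a was thus next to the top in control and in the middle in PRP, although both places were shared, within counting error, with neighbours.

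The 5 phosphodiesterases were a minor share of the summed FPKM of all phosphodiesterase genes. Such a share is of level per exon length, not of transcripts or reads. Pde3a, for example, had more reads than Pde8a, 1880 against 1145 in PRP and 1961 against 1091 in control. Over 24 phosphodiesterase genes the summed level was 33.4 FPKM in PRP and 38.6 FPKM in control, of which the 5 made up 7.001% and 6.74%. Pde8a, a cAMP-specific enzyme that IBMX hardly blocks, alone made up 21.1% and 20.5%, at 7.06 FPKM and 7.90 FPKM. With Pde8b (1.23 and 1.21 FPKM) and Pde9a (2 and 6 reads) the IBMX-resistant genes held 24.9% of the sum in PRP and 23.7% in control. Pde6d, at 8.19 and 7.73 FPKM, encodes a prenyl-binding chaperone and not a catalytic subunit. Without it and the small inhibitory subunits Pde6g and Pde6h the sums were 24.2 and 29.9 FPKM. Of these sums the 5 held 9.68% and 8.70%, and the IBMX-resistant genes 34.4% and 30.6%. Pde8a, Pde8b, Pde9a and Pde6d were picked for this account after their values were seen.

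Of the 19 other phosphodiesterases, 9 passed the minimum level. For genes past that level whose reads were whole, 26.1% of 12369 had an interval above 1 and 26.1% one below 1, which is the background for this list and those of the other pathway steps. Of these 9, none had an interval above 1 and 3 had one below, and their median log2 fold change was -0.14, beside 0.01 over all genes tested. The share of 3 in 9 is near the background. The 3 were Pde1b, activated by calmodulin like Pde1a, at 1.21 FPKM in PRP and 2.88 FPKM in control, with a ratio of 0.421 (0.339 to 0.521), Pde2a, which cGMP stimulates, with a ratio of 0.647 (0.573 to 0.730), and Pde3a, the relative of Pde3b that cGMP inhibits, with a ratio of 0.816 (0.745 to 0.893). By family, PDE1 summed to 2.12 FPKM in PRP and 4.08 FPKM in control (ratio 0.519), PDE3 to 4.19 and 4.99 (0.840), PDE4 to 1.96 and 1.88 (1.04) and PDE7 to 1.82 and 1.69 (1.08). The lower PDE1 sum thus came with lower values of both Pde1a and Pde1b, and Pde1b had the larger difference.

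**Figure D3:**
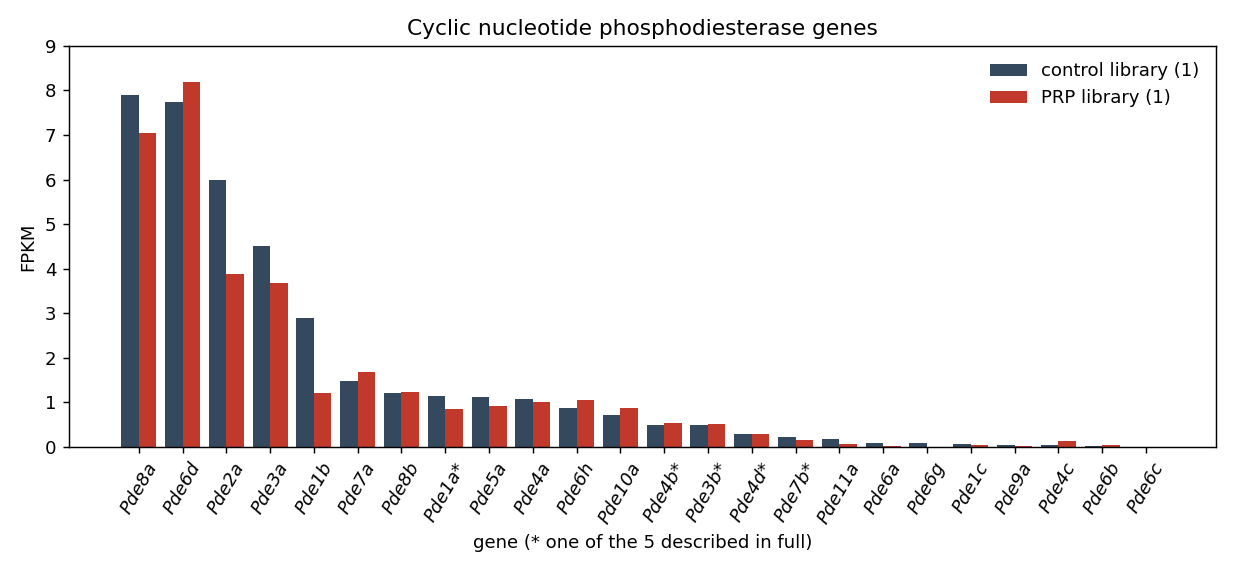
FPKM of the 24 phosphodiesterase genes in the control and PRP libraries as bars from 0, ordered by the control level, with asterisks on the 5 genes described in full. Pde8a (7.06 in PRP, 7.90 in control) and Pde6d (8.19 and 7.73) are the tallest, and no gene with an asterisk is above 1.14.

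Around the 10 genes, the steps of the pathway differed in direction. Receptors and Gs showed no shared direction. Of 14 such genes 4 passed the minimum level, of which 3 were higher in PRP, with 0.19 as their median log2 fold change. With no minimum the median over the 14 was 0.0026 and the summed level was 97.0 FPKM in PRP and 100.4 FPKM in control. Ptgir, the prostacyclin receptor, was at 23.5 FPKM in PRP and 17.4 FPKM in control, a ratio of 1.35 (1.25 to 1.46), and Ptger4, a prostaglandin E2 receptor, had a ratio of 1.31 (1.04 to 1.65). Gnas, which encodes the Gs alpha subunit, was lower, at 67.9 and 77.5 FPKM, and has no interval because its reads were not whole.

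Adenylyl cyclases, which make cAMP, were all lower in PRP among the 5 of 10 that passed the minimum level. On the log2(FPKM + 1) scale the median difference was -0.54, and 4 of the 5 had intervals below 1. Adcy7 was at 3.97 FPKM in PRP and 8.06 FPKM in control (ratio 0.493, 0.442 to 0.549), Adcy9 at 2.44 and 4.24 FPKM (0.574, 0.488 to 0.675) and Adcy6 at 8.43 and 12.7 FPKM (0.662, 0.612 to 0.716).

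PKA subunits, PKA inhibitors and the cAMP-binding EPAC exchange factors were lower as well, all 9 that passed the minimum level out of 11, with a median log2 fold change of -0.26. Intervals lay below 1 for 6 of them. Prkaca, the main catalytic subunit, was at 11.5 FPKM in PRP and 22.3 FPKM in control, a ratio of 0.514 (0.462 to 0.571). Prkar2b, a regulatory subunit prominent in fat, had a ratio of 0.704 (0.651 to 0.761), and Pkig, a PKA inhibitor, one of 0.715 (0.604 to 0.845).

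CREB family factors and their coactivators were nearly level. Of 9 genes, all past the minimum level, 8 were higher in PRP and 1 lower, with a median log2 fold change of 0.08. Intervals above 1 were found for 3. The differences were small, with ratios of 1.18 (1.02 to 1.36) for Crtc1, 1.14 (0.978 to 1.33) for Crtc2 and 1.13 (1.05 to 1.21) for Crebbp, which encodes CBP.

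Other CREB targets were mostly higher in PRP, as were 4 of the 5 described above. Of 25, 16 passed the minimum level, and 14 of these were higher and 2 lower, with a median log2 fold change of 0.49. Of 15 with an interval, 12 lay above 1, 1 below and 2 included 1. Atf3, a stress-induced factor, was at 12.0 FPKM in PRP and 5.14 FPKM in control (ratio 2.33, 1.97 to 2.77) and Maff, a small MAF factor, at 140.1 and 68.2 FPKM (2.05, 1.97 to 2.14). These were the 2 genes of the list at least 2-fold changed on the log2(FPKM + 1) scale. Scg2, a secretory granule protein, went the other way, at 1.80 FPKM in PRP and 4.54 FPKM in control, with a ratio of 0.397 (0.306 to 0.512).

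Named after their values were seen, Vgf, a secreted neuropeptide precursor, had the highest ratio among those past the minimum level, 3.14 (2.07 to 4.91), at 1.79 FPKM in PRP and 0.571 FPKM in control, and Csrnp1 had one of 2.15 (1.66 to 2.80). Fos had a ratio of 1.84 (1.38 to 2.48), Junb one of 1.58 (1.44 to 1.74) and Dusp1, a MAP kinase phosphatase, one of 1.40 (1.23 to 1.59). Rgs2, which shortens G protein signals and had a mean FPKM just under 1, was lower, at 0.412 FPKM in PRP and 1.58 FPKM in control (ratio 0.260, 0.167 to 0.396). Many of these genes also respond to growth factors, serum and stress, and they were listed from general knowledge with earlier results of these data known.

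**Figure D4:**
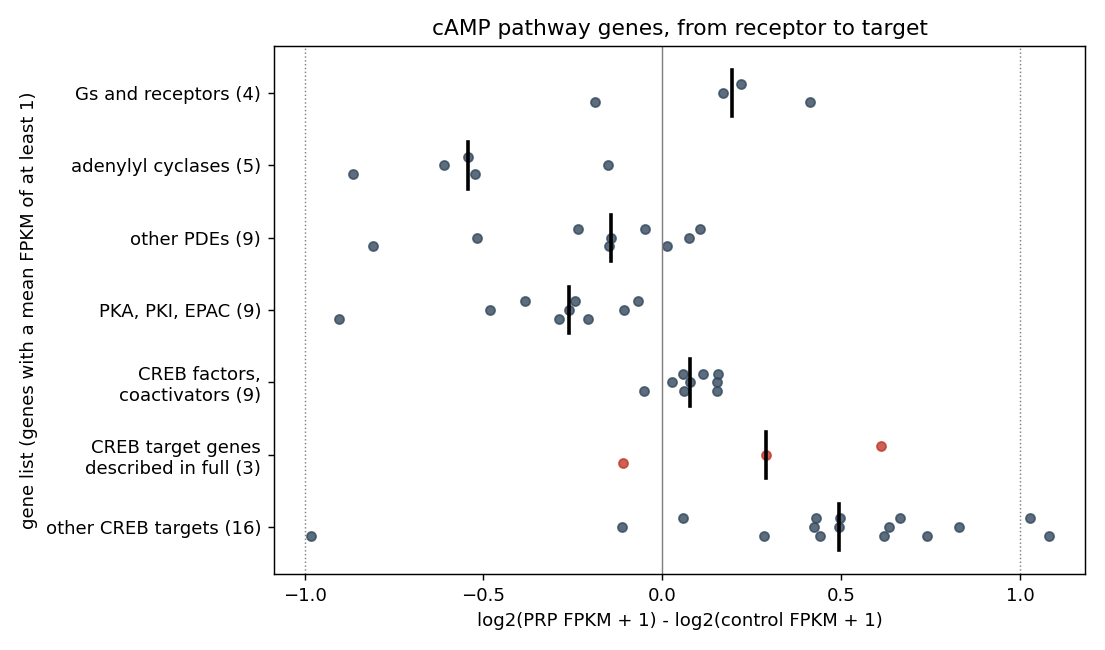
Log2 fold change on the log2(FPKM + 1) scale, PRP minus control (x axis), for each gene whose mean reached 1 FPKM (points; number per list in parentheses), by step of the pathway; black bars are medians and dotted lines mark 2-fold. Medians are -0.54 for adenylyl cyclases and -0.26 for PKA and EPAC, and 0.49 for other CREB targets.

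The palindrome TGACGTCA stood before 6 of the 21 other CREB targets with RefSeq promoters, among them Maff and Scg2. Their surroundings are shown because the same 8 letters lie before a gene that was higher and a gene that was lower in the PRP library. The pair was picked after the values were seen, and the other genes with the palindrome are not compared here. The letters are in capitals, at chr15:79347481-79347510 on the plus strand for a start of Maff and chr1:79440075-79440104 on the minus strand for Scg2.
Maff: gctggggcggTGACGTCActgcatgactgg
Scg2: gctgagccggTGACGTCAgcgtggaatgcg
The palindrome began at -29 for Maff and at -68 for Scg2. At least 1 core was found before 20 of the 21 genes when any start counted, and in 27 of their 37 promoters. No promoter held more than 3, against 4 in each NR4A promoter from its RefSeq start, or 3 for Nr4a3 before its M21 start. Over the 32851 promoters counted, 17.8% held a core and 1.55% the palindrome. The genes were listed as known CREB targets, so these counts describe them and are not a test.

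Other differences between the libraries moved alongside these. All 8 FAP markers were lower in PRP with intervals below 1, from a ratio of 0.374 for Dpt to 0.902 for Ly6a, and they summed to 324.8 FPKM in PRP and 520.0 FPKM in control. Endothelial markers summed to 9.45 and 5.38 FPKM, nearly all from Kdr and Tek, while the defining Pecam1 and Cdh5 were at most 0.188 FPKM. Leukocyte markers summed to 5.36 and 3.01 FPKM, mostly from Cd68, with Ptprc at 0.0109 and 0.0192 FPKM. Of the myogenic markers Pax7 and Myog were listed at 0, and the sum of 2.91 and 3.43 FPKM was nearly all Des. Platelet markers summed to 1.55 and 1.40 FPKM with Ppbp and Gp9 at 0. Adipocyte markers summed to 48.1 and 41.2 FPKM, led by Fabp4 at 40.7 and 33.6 FPKM. For the other 4 adipocyte markers the interval of the ratio included 1, and Plin1 was at 1.73 and 2.10 FPKM. Assigned reads were 40120843 in PRP and 34139741 in control, and genes of the mitochondrial genome held 2.06% and 3.70% of the summed FPKM. The part of these differences in the values of the 10 genes was not tested.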

How the data were processed

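RNA-seq was performed on 1 PRP and 1 control library of FAPs. Per the labels and the study's methods, RNA was taken with TRIzol and made into stranded mRNA libraries, and the authors trimmed reads with fastp 0.23.4, aligned them to mm10 with STAR 2.5.3a and counted them with featureCounts. The deposited values are FPKM per gene. The annotation release, the strand setting and the step from counts to FPKM are not given in the sources used here.

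Gene identifiers were matched to GENCODE M21 (GRCm38), in which 41492 of 44291 genes (93.7%) had a length. FPKM times length gave whole reads, within 0.001 reads in both libraries, for 26406 of 28160 genes above 0 (93.8%), and with them the totals of 40120843 and 34139741 assigned reads. Even numbers were in excess (79.3% and 80.3% of genes with up to 8 reads), so intervals used reads divided by 2. PCR duplicates are not taken into account. No count test was run, since each group has 1 library.

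Fold changes are differences of log2(FPKM + 1), PRP minus control, over genes whose mean in both libraries reached 1 FPKM. The pseudocount of 1 understates changes of low genes. The members and the gene lists were chosen with earlier results of these data known. All 10 genes are named, and of each pathway list the genes at least 2-fold changed or, if fewer than 3, the 3 with the largest absolute log2 fold change. Any other gene is named as a marker, a family member or after its values were seen. Promoters came from RefSeq (GRCm38). Alternatives were pseudocounts of 0.1 and 5, no filter, a mean FPKM of 5, 4 rescalings, 1 of them added after seeing the data, thresholds of 1.5-fold and 4-fold, and reads as independent counts. Python 3.11.15, NumPy 2.4.6, pandas 2.3.3, SciPy 1.17.1 and matplotlib 3.10.9 were used, and the scripts were tested on simulated data.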

Additional observations from a re-analysis of the deposited data

How the results depend on the processing

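Of 60 log2 fold changes of the 10 genes recomputed with other pseudocounts or scalings, 55 stayed within counting error, 5 moved and 0 reversed. The number of these genes at least 2-fold changed was 0, and 1 (Nr4a2) at a threshold of 1.5-fold. The 4 genes whose intervals left out 1 were the same under 3 rescalings added after seeing the data, and 6 did so with reads as independent counts (Nr4a1 and Pde7b besides). Over all genes, 379 were at least 2-fold changed, against 739 and 113 when 0.1 and 5 were added before the logarithm, 210 among genes averaging 5 FPKM or more, 596 as TPM, 1436 at 1.5-fold and 26 at 4-fold. The adenylyl cyclase median of -0.54 became -0.69 with a pseudocount of 0.1, -0.31 with 5, -0.33 with no filter, -0.70 among genes averaging 5 FPKM or more and -0.65 as TPM. TPM multiplied the values by 2.92 in PRP and 2.95 in control before 1 was added, so it changed the weight of the pseudocount as well as the scaling. With both libraries set to the mean of their sums, added after seeing the data, the count was 376 and the median -0.56. With a pseudocount of 5 the PKA and EPAC median of -0.26 became -0.19 and that of other CREB targets, 0.49, became 0.29. The share of the 5 phosphodiesterases was 9.68% in PRP and 8.70% in control without Pde6d, Pde6g and Pde6h, which was added after seeing the data.

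A median log2 fold change over the phosphodiesterases described in full is not given, since none passed the filter, and over the 5 CREB targets none was left at a mean FPKM of 5. No paired analysis was possible because there was only a single library for a group, and leaving a library out would leave no comparison. Depth limits all 10 genes: the interval of Pde7b, with 76 and 90 reads, ran from 0.454 to 1.13, and that of Nr4a3, with 154 and 84 reads, from 1.06 to 2.33.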
